A study of Mus musculus with 18 samples.

Results

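HOIL-1, encoded by *Rbck1*, is a subunit of the linear ubiquitin chain assembly complex (LUBAC), together with HOIP (*Rnf31*) and SHARPIN. LUBAC joins ubiquitin molecules head to tail on signalling proteins, which favours NF-κB activation and restrains cell death downstream of immune receptors. Described here are 8 genes chosen because they differed between HOIL-1-deficient and wild-type (WT) thymocytes, out of 27179 genes in the count table and 12798 genes that were tested. They are *Marchf6*, *Cpt1a*, *Gramd3*, *Sh3bgrl2*, *Man1c1*, *Inf2*, *Fkbp5* and *Tspan9*, found by their Entrez Gene ID. All 8 passed the filter on low counts. They were chosen for their difference between Hoil and WT. This difference, and every comparison that uses the Hoil samples, is therefore given for these genes as a description without a test.

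RNA was sequenced from sorted thymocytes of 3 WT, 3 Hoil and 3 Sharpin mice, each mouse giving 2 samples of CD69+ cells, 1 with low and 1 with high surface MHC I (the low and the high fraction in the following), 18 in all. Hoil mice carry floxed *Rbck1* alleles and a Cd4-Cre transgene, so that the promoter and the first exons of *Rbck1* are removed in T-lineage cells only, from the stage at which the *Cd4* promoter is active. Sharpin mice carry the cpdm mutation and lack SHARPIN in every cell of the body, including non-T cells of the thymus. Their mutation came from the C57BL/Ka strain and had been backcrossed to C57BL/6 for 2 generations, and no treatment is given. The ages of these mice are not given in the sources used here. CD69 appears on thymocytes once the T-cell receptor has signalled, and MHC I increases on the surface as selected cells mature, which makes the high fraction the later stage. The sort removed dead cells and cells that carried B220, Gr1, MHC II, CD44, Mac-1, NK1.1, CD25 or the δ chain of the T-cell receptor. In sorted populations such as these, fewer cells of a kind and less RNA per cell cannot be told apart.

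The counted reads per sample ranged from 10577966 to 16266128, with a median of 13979793. *Rbck1* fell from 222.5 ± 6.08 CPM (counts scaled to library size with TMM factors; mean ± SD, n = 3) in WT to 0.544 ± 0.256 in the low fraction of Hoil mice, and from 266.1 ± 2.28 to 5.72 ± 2.81 in the high fraction. *Sharpin* transcripts were at 91.3 ± 5.76 CPM in WT and 71.5 ± 4.49 in Sharpin mice in the low fraction, and at 89.7 ± 2.87 and 73.8 ± 4.25 in the high fraction, a level that does not by itself check the cpdm mutation. In Hoil mouse 2, the MHC I high sample held the most *Rbck1* of its group (8.94 CPM) and also 64.6 CPM of *Xist* in a mouse whose other sample held 0.606 CPM. By *Xist* and the Y-linked *Ddx3y*, all 3 WT mice, 1 Hoil mouse and 1 Sharpin mouse were female and the other 4 mice male, so that genotype and sex were partly confounded, and values for female mice are given with the results below. The MHC class I gene *H2-K1* was at 215.6 ± 5.87 CPM in the low and 2003 ± 27.0 in the high fraction of WT mice. T-lineage markers summed to between 6002 and 6985 CPM in every sample. Lists of markers of other cells summed to 3.71 to 6.76 CPM for 7 genes of B cells, 29.2 to 39.0 CPM for 10 of myeloid and dendritic cells and 0.345 to 1.66 CPM for erythroid genes. The sums were higher in the high than in the low fraction for 8 genes of thymic epithelium (60.9 to 75.2 against 19.1 to 35.6 CPM) and 9 of natural killer and innate-like T cells (75.9 to 104 against 26.3 to 52.8 CPM). Within these lists *Ncr1* was at 0 in all samples and *Pax5*, *Foxn1*, *Krt5* and *Krt14* were at no more than 0.0861 CPM, whereas *Ly75* reached 65.4, *Nkg7* 49.7, *Trdc* 41.8, *Sox13* 35.4, *Cst3* 28.4, *Gzma* 19.5, *Epcam* 11.6, *Itgam* 8.13, *Cd68* 7.35 and *Cd79b* 4.68 CPM. Their part in the results below was not tested.

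The chosen genes serve separate tasks in the cell. *Marchf6* encodes a ubiquitin ligase of the endoplasmic reticulum (ER) membrane that marks proteins for ER-associated degradation, and *Cpt1a* encodes the enzyme of the outer mitochondrial membrane that commits long-chain fatty acids to oxidation. *Man1c1* encodes a Golgi mannosidase that trims N-linked glycans, *Inf2* a formin that assembles actin, also at sites of mitochondrial division, and *Tspan9* a tetraspanin, a class of membrane proteins that organise receptors and adhesion molecules. *Fkbp5* encodes FKBP51, a co-chaperone of HSP90 that dampens the glucocorticoid receptor and is itself induced by glucocorticoids, hormones to which thymocytes are highly sensitive. *Gramd3* encodes a protein with a lipid-binding GRAM domain and *Sh3bgrl2* a small protein with a thioredoxin-like fold. Each lies on its own autosome in the GRCm38.p6 annotation, *Marchf6* on chromosome 15 (31455899 to 31531082), *Cpt1a* on 19 (3322326 to 3385735), *Gramd3* on 18 (56387485 to 56503792), *Sh3bgrl2* on 9 (83548338 to 83600292), *Man1c1* on 4 (134561690 to 134704290), *Inf2* on 12 (112588744 to 112615557), *Fkbp5* on 17 (28398753 to 28486149) and *Tspan9* on 6 (127961396 to 128143578). None of them is a neighbour of *Rbck1* on chromosome 2 or of *Sharpin*, whose gene lies on chromosome 15 at 76347040 to 76351110. Other annotated genes, mostly long noncoding, overlap every one of the 8. None of those has a row of its own in the count table, and reads that fall on both could not be separated.

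Proximal promoters are shown for *Marchf6* and *Cpt1a*, whose Hoil difference was of like size in both fractions, for the 2 raised mainly in the low fraction (*Sh3bgrl2*, *Man1c1*) and for the glucocorticoid-responsive *Fkbp5*. Each runs from 250 bases before to 50 bases after a RefSeq transcription start on GRCm38.p6, read 5′ to 3′ on the strand of the gene, with GC boxes (GGGCGG) and CCAAT boxes on either strand in capitals. The *Marchf6* window is chr15:31530988-31531287 on the minus strand, that of *Cpt1a* chr19:3323051-3323350 on the plus strand, that of *Sh3bgrl2* chr9:83548088-83548387 on the plus strand, that of *Man1c1* chr4:134704241-134704540 on the minus strand and that of *Fkbp5* chr17:28486100-28486399 on the minus strand.
Marchf6: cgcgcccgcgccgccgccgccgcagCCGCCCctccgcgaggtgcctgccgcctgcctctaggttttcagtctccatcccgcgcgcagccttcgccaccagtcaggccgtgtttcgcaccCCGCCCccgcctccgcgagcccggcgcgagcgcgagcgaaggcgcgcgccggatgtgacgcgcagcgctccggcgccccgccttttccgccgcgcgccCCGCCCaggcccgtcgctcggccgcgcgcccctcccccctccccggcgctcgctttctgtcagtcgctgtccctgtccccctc
Cpt1a: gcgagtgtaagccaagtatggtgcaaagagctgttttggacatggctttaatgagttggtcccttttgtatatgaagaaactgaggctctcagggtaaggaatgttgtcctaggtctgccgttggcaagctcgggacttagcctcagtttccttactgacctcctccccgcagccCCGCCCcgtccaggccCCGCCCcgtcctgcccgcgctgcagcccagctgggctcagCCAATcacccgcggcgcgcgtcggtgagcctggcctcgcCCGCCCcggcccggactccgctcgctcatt
Sh3bgrl2: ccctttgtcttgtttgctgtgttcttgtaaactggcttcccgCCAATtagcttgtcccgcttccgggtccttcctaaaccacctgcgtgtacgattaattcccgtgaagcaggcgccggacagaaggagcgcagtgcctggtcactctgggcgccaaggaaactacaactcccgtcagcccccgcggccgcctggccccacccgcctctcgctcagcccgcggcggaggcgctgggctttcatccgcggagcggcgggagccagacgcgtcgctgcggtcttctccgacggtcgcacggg
Man1c1: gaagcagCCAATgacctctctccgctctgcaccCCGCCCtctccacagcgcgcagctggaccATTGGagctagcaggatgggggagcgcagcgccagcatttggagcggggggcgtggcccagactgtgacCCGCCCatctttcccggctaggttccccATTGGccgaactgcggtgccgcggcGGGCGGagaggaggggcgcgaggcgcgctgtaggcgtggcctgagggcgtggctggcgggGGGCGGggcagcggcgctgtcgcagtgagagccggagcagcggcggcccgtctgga
Fkbp5: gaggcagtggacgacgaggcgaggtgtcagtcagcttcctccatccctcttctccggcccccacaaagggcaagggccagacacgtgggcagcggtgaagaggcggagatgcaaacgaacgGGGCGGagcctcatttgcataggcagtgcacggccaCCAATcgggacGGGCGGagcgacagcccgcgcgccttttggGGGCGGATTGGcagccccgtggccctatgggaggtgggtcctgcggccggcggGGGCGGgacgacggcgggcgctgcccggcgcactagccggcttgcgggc

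All of these 5 windows are rich in CpG dinucleotides, with 53 in *Marchf6*, 22 in *Cpt1a*, 32 in *Sh3bgrl2*, 31 in *Man1c1* and 32 in *Fkbp5*, against a median of 7 over 32817 RefSeq promoters of the same length. GC boxes number 3 in *Marchf6*, 3 in *Cpt1a*, 4 in *Man1c1*, 4 in *Fkbp5* and 0 in *Sh3bgrl2*, and 35.6% of all promoters hold at least 1. CCAAT boxes are present in *Cpt1a*, *Sh3bgrl2*, *Man1c1* and *Fkbp5*, as in 37.4% of all promoters. A TATA box (TATAAA, in 13.6% of all promoters), searched on both strands, had no match in the promoters of the 7 genes searched, all but *Gramd3*. A missing match says only that these letters are not in the window.

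*Marchf6* and *Cpt1a* were shifted alike in both fractions of Hoil mice and hardly changed between fractions. *Marchf6* was at 223, 202 and 206 CPM in low-fraction cells of WT mice 1 to 3 and at 109, 118 and 124 CPM in those of Hoil mice 1 to 3. In high-fraction cells it was at 184, 208 and 201 CPM in WT and at 111, 114 and 108 CPM in Hoil. Every Hoil sample lay far below every WT sample, and the difference was −0.85 ± 0.07 (log2 change ± SE) in the low and −0.84 ± 0.06 in the high fraction, a level of 0.553 and 0.560 times that of WT. Sharpin samples overlapped with the WT samples, with 223, 215 and 197 CPM in the low and 203, 198 and 179 CPM in the high fraction. *Marchf6* had rank 2 by moderated t among the genes lower in Hoil in each fraction, and rank 173 (low) and 227 (high) by size of the change.

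*Cpt1a* was at 30.9, 41.8 and 38.6 CPM in WT and at 73.5, 70.7 and 75.6 CPM in Hoil low-fraction cells. In high-fraction cells the levels were 36.0, 45.1 and 39.4 CPM in WT and 68.6, 83.95 and 75.8 CPM in Hoil. The lowest Hoil sample of either fraction was therefore well above the highest WT sample, and Hoil cells held 2.03 times (log2 change 1.02 ± 0.10) and 1.95 times (0.97 ± 0.09) the WT level. Sharpin cells were intermediate, with 46.2, 48.5 and 44.0 CPM in the low fraction, all above WT, and 44.9, 51.1 and 54.0 CPM in the high fraction, where the lowest Sharpin sample fell just under the highest WT sample.

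*Gramd3*, *Inf2* and *Tspan9* were genes of the later stage that stood lower in Hoil cells. *Gramd3* was at 24.8, 19.4 and 22.4 CPM in WT and at 9.95, 10.4 and 9.63 CPM in Hoil low-fraction cells, and at 74.4, 68.3 and 71.0 CPM in WT and 42.9, 36.9 and 46.6 CPM in Hoil high-fraction cells. No Hoil sample reached the WT range, and the log2 difference was −1.16 ± 0.11 in the low and −0.77 ± 0.10 in the high fraction. Sharpin low-fraction cells held 9.12, 9.56 and 11.1 CPM, overlapping with the Hoil cells, whereas Sharpin high-fraction cells held 52.2, 58.2 and 61.4 CPM, between the Hoil and the WT samples.

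*Inf2* was at 16.6, 18.04 and 15.6 CPM in WT and 11.5, 11.5 and 11.7 CPM in Hoil low-fraction cells. In high-fraction cells it was at 67.2, 62.2 and 64.5 CPM in WT, 38.9, 32.0 and 36.8 CPM in Hoil and 49.2, 48.2 and 48.6 CPM in Sharpin. The 3 genotypes formed separate ranges in the high fraction, with Hoil lowest. The Hoil difference was −0.53 ± 0.09 in the low and −0.88 ± 0.08 in the high fraction, and Sharpin low-fraction cells (13.2, 12.4 and 14.2 CPM) also lay between Hoil and WT.

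*Tspan9* was at 139, 147 and 127 CPM in WT, 88.7, 77.1 and 81.1 CPM in Hoil and 74.3, 87.0 and 92.4 CPM in Sharpin high-fraction cells. Both mutants overlapped with each other and lay well below WT. In low-fraction cells the levels were 31.3, 26.03 and 27.1 CPM in WT, 24.5, 22.2 and 25.4 CPM in Hoil and 24.1, 24.6 and 28.3 CPM in Sharpin, with all 3 Hoil samples and 2 of the 3 Sharpin samples below the WT range. The Hoil difference was −0.23 ± 0.09 in the low and −0.71 ± 0.08 in the high fraction.

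*Sh3bgrl2* and *Man1c1* were also genes of the later stage, but were higher in Hoil cells, and in the MHC I low fraction. *Sh3bgrl2* was at 0.512, 0.576 and 0.469 CPM in WT (8, 9 and 6 counts) and at 2.69, 2.25 and 2.44 CPM in Hoil low-fraction cells (37, 26 and 36 counts), 4.31 times the WT level on the log2 CPM scale (log2 change 2.11 ± 0.28). In high-fraction cells it was at 3.88, 4.20 and 3.65 CPM in WT and 6.38, 3.56 and 3.84 CPM in Hoil, where the groups overlapped and 1 mouse stood above the rest. Without Hoil mouse 1 the difference in the high fraction changed sign, from 0.16 to −0.04. Sharpin cells were between Hoil and WT in the low fraction (1.69, 1.29 and 0.837 CPM) and below both in the high fraction (3.20, 2.48 and 2.36 CPM).

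*Man1c1* was at 1.60, 1.22 and 1.64 CPM in WT, 5.08, 3.63 and 4.07 CPM in Hoil and 2.5, 1.89 and 1.67 CPM in Sharpin low-fraction cells. Here the 3 genotypes did not overlap, although the lowest Sharpin sample was close to the highest WT sample. In high-fraction cells the levels were 10.8, 8.85 and 9.999 CPM in WT, 11.01, 10.9 and 10.9 CPM in Hoil and 11.1, 8.77 and 6.99 CPM in Sharpin. The Hoil difference fell from 1.47 ± 0.20 in the low to 0.14 ± 0.18 in the high fraction.

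*Fkbp5* differed mainly in the MHC I high fraction. It was at 117, 126 and 125 CPM in WT, 152, 189 and 191 CPM in Hoil and 135, 143 and 134 CPM in Sharpin high-fraction cells. The Hoil samples were all above the others, with mouse 1 nearest to them, and the difference was 0.55 ± 0.06, or 1.46 times the WT level. In low-fraction cells the levels were 118, 125 and 123 CPM in WT, 132, 130.01 and 133 CPM in Hoil and 122, 126 and 125 CPM in Sharpin, with a Hoil difference of 0.12 ± 0.07.

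**Figure D1:**
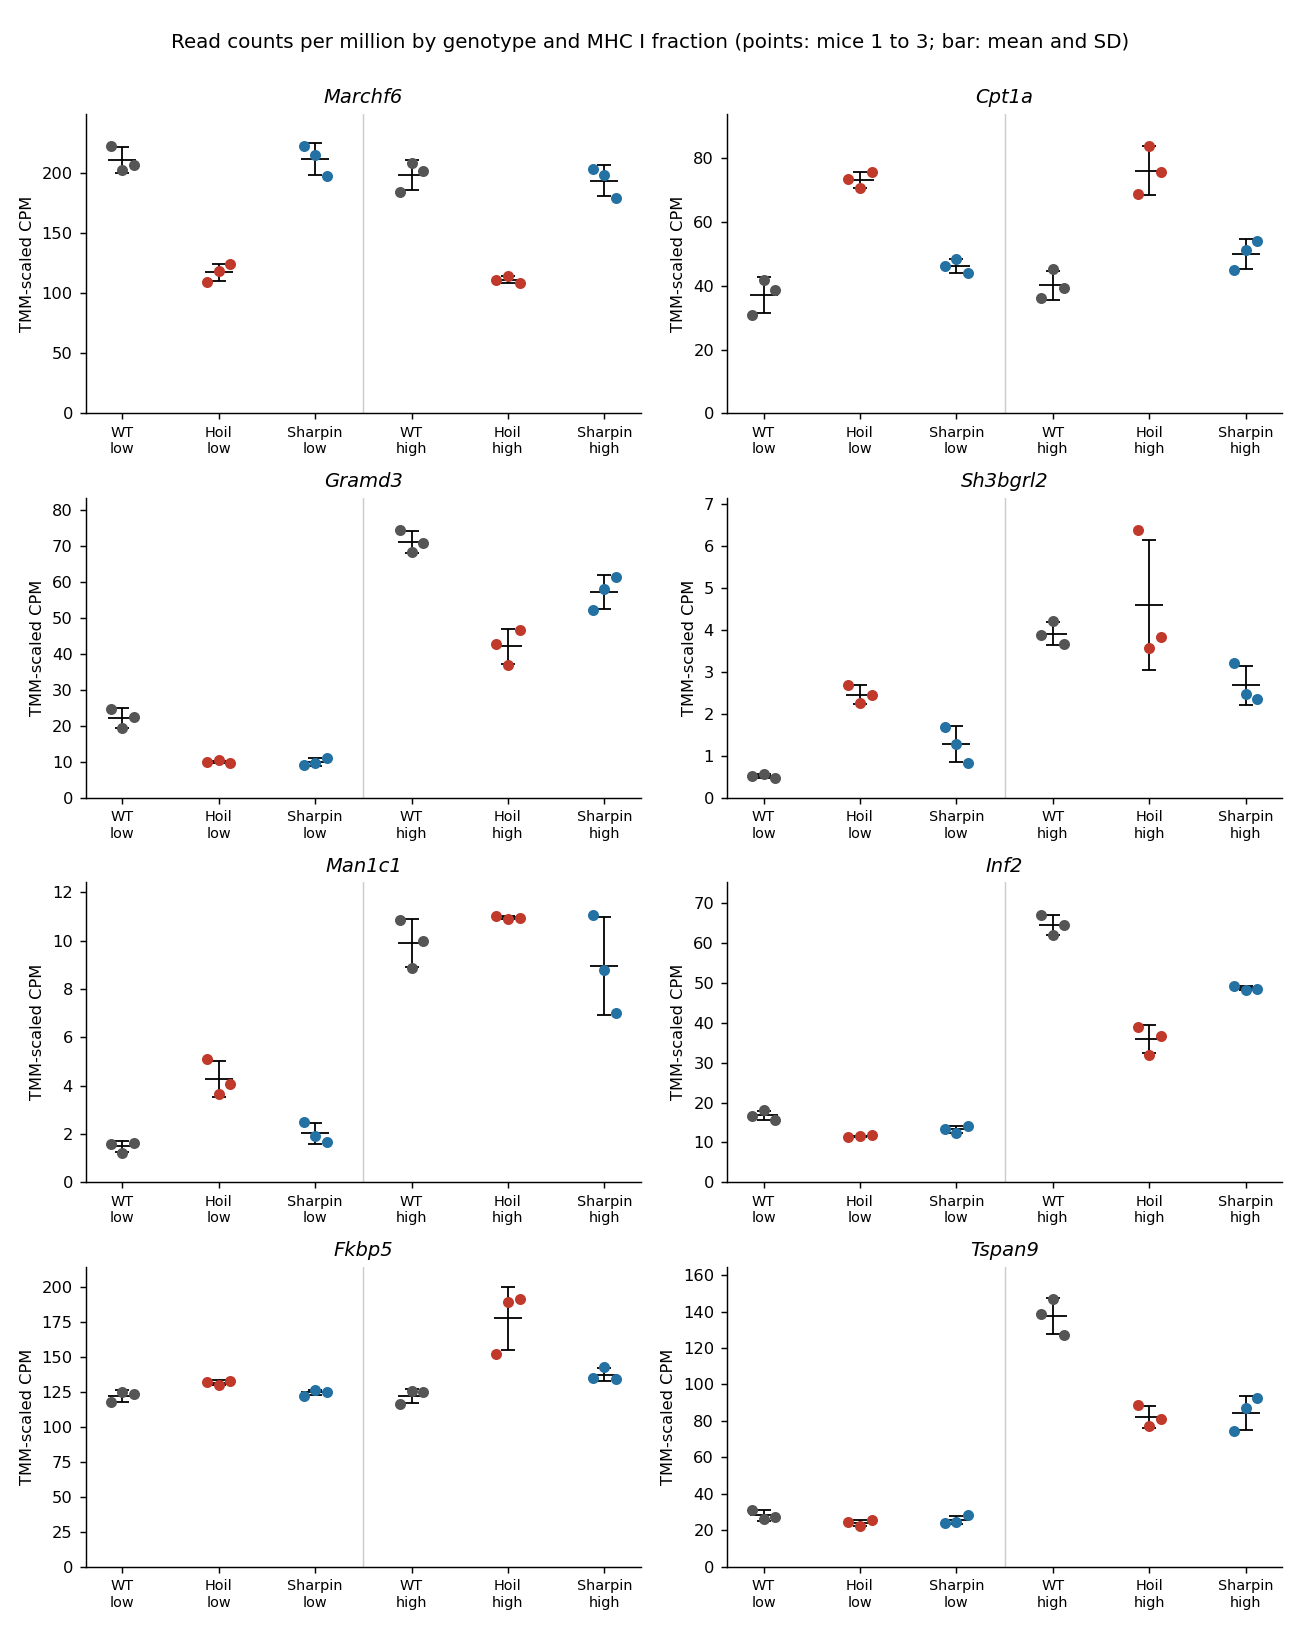
Levels of the 8 genes in TMM-scaled CPM (vertical axes, from 0) in each of 18 samples, by genotype and MHC I fraction; points are the 3 mice of a group in order, bars the mean and SD. *Marchf6* and *Cpt1a* separate Hoil from WT in both fractions, *Sh3bgrl2* and *Man1c1* in the low fraction, and *Fkbp5* in the high fraction, where the Hoil samples lie between 152 and 191 CPM.

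In the low fraction, all 8 genes had Hoil samples outside the WT range, as 14.7% of all tested genes did, and in the high fraction all but *Sh3bgrl2* did, against 19.6%. These shares describe how the genes were chosen. The difference of the single female Hoil mouse from the 3 female WT mice had the direction of that of all Hoil mice in both fractions for 7 of the genes, with −0.76 (low) and −0.87 (high) for *Marchf6*, 1.04 and 0.92 for *Cpt1a*, and 0.65 (high) for *Fkbp5*. For *Sh3bgrl2* it was 2.09 in the low and −0.02 in the high fraction. Without Hoil mouse 2, the MHC I high differences were −0.87 for *Marchf6*, 0.87 for *Cpt1a*, −0.79 for *Inf2*, −0.66 for *Tspan9*, −0.68 for *Gramd3* and 0.46 for *Fkbp5*. The difference of *Sh3bgrl2* in that fraction moved from 0.16 to 0.37 without this mouse.

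Whether the same genes differed between Sharpin and WT mice was tested with limma in a model of all 18 samples. Its p-values were adjusted by Benjamini-Hochberg over all 12798 genes. Sharpin and WT mice also differed in strain background and in part in sex, which these comparisons cannot tell apart from the loss of SHARPIN. These comparisons share the WT samples with the difference that chose the genes, so that a shift caused by the WT samples alone would appear in both. In low-fraction cells, 4 of the 8 genes differed between Sharpin and WT, where 12.2% of all genes did (5.31% higher and 6.92% lower). *Gramd3* fell by 1.19 ± 0.10 on the log2 scale (adjusted p = 4.1e-10) and *Inf2* fell by 0.35 ± 0.09 (adjusted p = 0.00728). *Sh3bgrl2* rose by 1.20 ± 0.25 (adjusted p = 0.00164) and *Cpt1a* by 0.37 ± 0.09 (adjusted p = 0.00865). Not called were *Marchf6* (0.01 ± 0.06, adjusted p = 0.952), *Man1c1* (0.41 ± 0.18, adjusted p = 0.142), *Fkbp5* (0.04 ± 0.06, adjusted p = 0.764) and *Tspan9* (−0.16 ± 0.08, adjusted p = 0.228). Leaving out Sharpin mouse 2 ended the calls of *Cpt1a* (adjusted p = 0.103) and *Inf2* (0.106), and leaving out WT mouse 1 that of *Cpt1a* (0.140). The log2 change of the single female Sharpin mouse from WT was −1.20 for *Gramd3*, −0.43 for *Inf2*, 1.21 for *Sh3bgrl2* and 0.40 for *Cpt1a*.

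In high-fraction cells, 4 of the 8 genes again passed the limma test against a background of 8.62% (4.15% higher and 4.47% lower). *Tspan9* fell by 0.65 ± 0.08 (adjusted p = 4.48e-07), *Inf2* fell by 0.42 ± 0.08 (adjusted p = 0.000569) and *Gramd3* fell by 0.31 ± 0.09 (adjusted p = 0.0221), while *Cpt1a* rose by 0.35 ± 0.08 (adjusted p = 0.00745). In the single female Sharpin mouse the log2 change from WT was −0.66 for *Tspan9*, −0.42 for *Inf2*, −0.29 for *Gramd3* and 0.35 for *Cpt1a*. The calls of *Tspan9* and *Inf2* held in all 19 alternative fits. Those of *Gramd3* and *Cpt1a* were each lost in 7 of the 19, among them, for *Gramd3* and *Cpt1a* in turn, the fits that left out WT mouse 1 (adjusted p = 0.146 and 0.113), WT mouse 3 (0.253 and 0.211) or Sharpin mouse 2 (0.0917 and 0.0942). The call of *Gramd3* was also lost with the mouse number as a fixed block (adjusted p = 0.0608), with no filter on low counts (0.0638) and without Sharpin mouse 1 (0.109). That of *Cpt1a* was also lost with edgeR (0.0800), with DESeq2 (0.0647) and without Sharpin mouse 3 (0.0964). Without sample quality weights limma called neither (0.0884 for *Gramd3* and 0.0715 for *Cpt1a*). *Marchf6* (−0.03 ± 0.06, adjusted p = 0.795), *Sh3bgrl2* (−0.53 ± 0.23, adjusted p = 0.152) and *Man1c1* (−0.18 ± 0.16, adjusted p = 0.567) were not called. Ranges that did not overlap with WT were seen for all but *Marchf6*, *Cpt1a* and *Man1c1*, as for 22.3% of all genes (in the low fraction for all but *Marchf6*, *Fkbp5* and *Tspan9*, as for 30% of all genes). *Fkbp5* (0.17 ± 0.06, adjusted p = 0.0522) was just outside the threshold and passed it with *Xist* as a covariate (adjusted p = 0.0095), with scaling by library size only (0.0469), with at least 10 counts in every sample (0.0413) and without Hoil mouse 1 (0.0234).

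Set side by side, the changes from WT in the 2 mutants were of like size for *Gramd3* in low-fraction cells (−1.16 in Hoil, −1.19 in Sharpin) and for *Tspan9* in high-fraction cells (−0.71 and −0.65). Those of *Marchf6* were far apart in both fractions (−0.85 and 0.01; −0.84 and −0.03). The direct difference of Hoil from Sharpin, which also uses the Hoil samples and is therefore a description, was −0.86 ± 0.07 and −0.81 ± 0.06 for *Marchf6*, 0.65 ± 0.10 and 0.62 ± 0.09 for *Cpt1a*, and 0.02 ± 0.11 and −0.46 ± 0.10 for *Gramd3*, in the low and high fraction respectively.

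**Figure D2:**
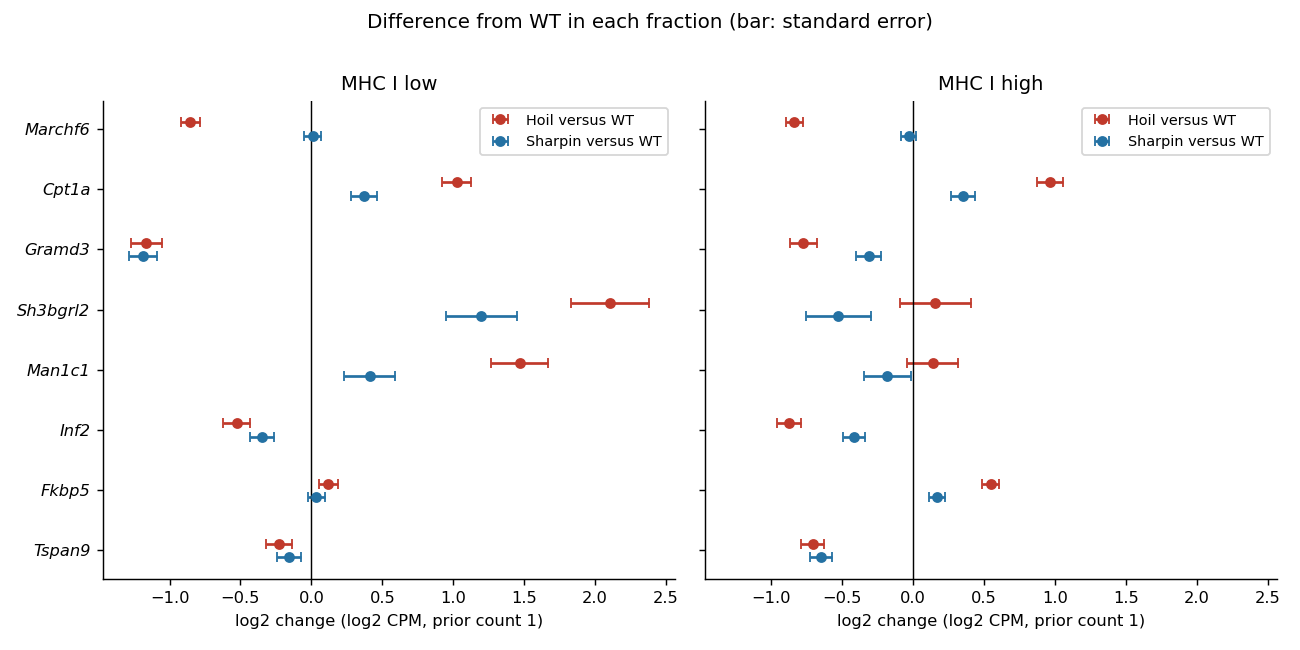
Log2 change from WT (horizontal axes, with SE bars) of the 8 genes in Hoil (red) and Sharpin (blue) mice, for MHC I low (left) and high-fraction cells (right). *Marchf6* is near −0.85 in Hoil and near 0 in Sharpin, while the Hoil and Sharpin values of *Gramd3* coincide in the low fraction and those of *Tspan9* in the high fraction.

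How the genes behave along normal maturation was asked by comparing the fractions within WT mice. These WT samples also entered the choice of the genes. A WT level that was high or low by chance in either fraction would therefore affect both the choice and this change. With limma, 5 of the 8 genes rose from the low to the high fraction, where 54.4% of all genes changed (27.5% rose and 26.8% fell). *Sh3bgrl2* rose by 2.73 ± 0.21 (adjusted p = 1.06e-12), *Man1c1* by 2.68 ± 0.15 (8.34e-16), *Tspan9* by 2.23 ± 0.07 (2.17e-22), *Inf2* by 1.96 ± 0.07 (1.28e-20) and *Gramd3* by 1.67 ± 0.08 (1.61e-17). *Marchf6* (−0.09 ± 0.05, adjusted p = 0.121), *Cpt1a* (0.12 ± 0.08, 0.183) and *Fkbp5* (0.01 ± 0.05, 0.833) were not called, and their ranges overlapped between fractions while those of the other 5 did not (52.7% of all genes did not), although *Marchf6* was called without WT mouse 2 (−0.15, adjusted p = 0.0308). The same 5 genes rose in Sharpin mice, in which 54.6% of all genes changed (27.2% rose and 27.4% fell), by 2.55 ± 0.08 for *Gramd3* (adjusted p = 1.34e-21), 2.09 ± 0.16 for *Man1c1* (9.04e-13), 1.89 ± 0.07 for *Inf2* (1.07e-19), 1.74 ± 0.07 for *Tspan9* (3.63e-19) and 1.00 ± 0.22 for *Sh3bgrl2* (0.00023). In Sharpin mice *Fkbp5* (0.15 ± 0.05, adjusted p = 0.0183) and *Marchf6* (−0.13 ± 0.05, adjusted p = 0.0351) passed as well, but edgeR (adjusted p = 0.0882 and 0.105) and DESeq2 (0.0979 and 0.130) called neither, and leaving out Sharpin mouse 1 (0.107 and 0.134) or mouse 2 (0.199 and 0.156), or for *Marchf6* mouse 3 (0.107), ended the calls. The ranges of *Marchf6* and *Cpt1a* overlapped between the Sharpin fractions and those of the other 6 did not, as for 55.8% of all genes. With the mouse number as a fixed block the adjusted p was 0.0525 for *Fkbp5* and 0.0629 for *Marchf6*.

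By a limma interaction term, the change between fractions itself differed between Sharpin and WT for 3 of the 8 genes. It differed for 3.13% of all genes (2.2% with a higher and 0.93% with a lower value in Sharpin). This comparison, too, uses the WT samples that entered the choice of the genes. *Gramd3* rose more steeply in Sharpin cells, by 0.87 ± 0.12 on the log2 scale (adjusted p = 5.06e-05). The rise was smaller by −1.72 ± 0.30 for *Sh3bgrl2* (adjusted p = 0.00121; 0.072 with edgeR) and by −0.49 ± 0.10 for *Tspan9* (adjusted p = 0.00515). In Hoil mice the corresponding values, which are descriptive, were 0.39 ± 0.13 for *Gramd3*, −1.95 ± 0.33 for *Sh3bgrl2*, −1.33 ± 0.24 for *Man1c1*, −0.48 ± 0.11 for *Tspan9*, −0.35 ± 0.11 for *Inf2* and 0.43 ± 0.08 for *Fkbp5*. *Sh3bgrl2* had in both mutants a raised level in the low fraction beside this smaller rise, whereas *Tspan9* had a lower level in the high fraction.

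**Figure D3:**
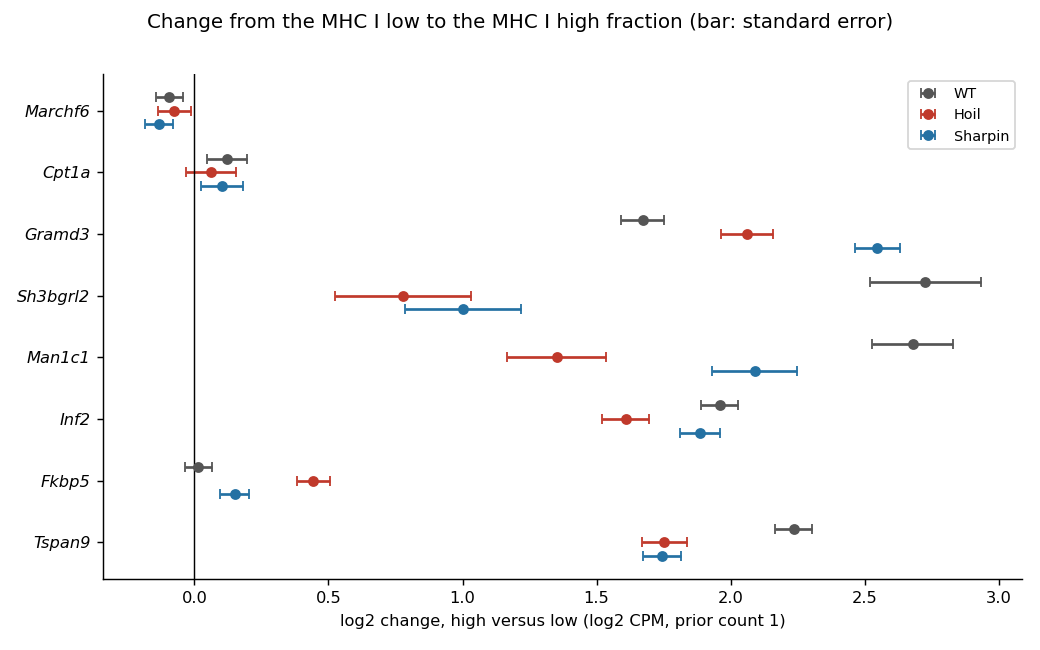
Log2 change from the MHC I low to the MHC I high fraction (horizontal axis, with SE bars) for each gene in WT (grey), Hoil (red) and Sharpin (blue) mice. *Gramd3*, *Sh3bgrl2*, *Man1c1*, *Inf2* and *Tspan9* rise in all 3 genotypes, with the WT value the lowest for *Gramd3* and the highest for the other 4.

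Per kilobase of counted exon, *Fkbp5* (36.5 ± 1.19 CPM per kb) and *Marchf6* (33.8 ± 1.72) were the most abundant of the 8 in WT low-fraction cells. *Cpt1a* (8.62 ± 1.31), *Gramd3* (8.51 ± 1.04) and *Tspan9* (7.16 ± 0.712) followed without differing beyond their spread, then *Inf2* (3.64 ± 0.262), *Man1c1* (0.315 ± 0.0499) and *Sh3bgrl2* (0.148 ± 0.0153). In WT high-fraction cells *Tspan9* (35.0 ± 2.49) had come up to *Fkbp5* (36.6 ± 1.503) and *Marchf6* (31.8 ± 1.98), and *Gramd3* (27.3 ± 1.19) and *Inf2* (14.0 ± 0.543) had passed *Cpt1a* (9.35 ± 1.06).

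Stage markers also differed from WT in the high fraction of both mutants. Of 7 genes that mark CD4+ CD8+ double-positive (DP) thymocytes, the stage before selection, 6 were higher in Hoil than in WT high-fraction cells by limma, with a median of 0.91 over the 7, against 3.84% of all genes. Among them were *Arpp21* (1.07, adjusted p = 1.68e-06), *Rag2* (1.17, 0.00113), *Dntt* (0.91, 0.00231), *Rag1* (0.89, 0.0047) and *Ptcra* (1.25, 0.0127). The 7 genes summed to between 265 and 303 CPM in WT, between 306 and 392.03 in Sharpin and to 354, 548 and 535 CPM in high-fraction cells of Hoil mice 1, 2 and 3. In Sharpin high-fraction cells 4 of the same 7 were called higher by limma (median 0.51, against 4.15% of all genes), 1 by edgeR and 2 by DESeq2. In Hoil cells the count was 2 without WT mouse 3, 2 without Hoil mouse 2 and 3 without Hoil mouse 3. In the low fraction 0 of the 7 were called by limma, edgeR or DESeq2, and 3 had an unadjusted limma p under 0.05. Of 9 markers of mature single-positive cells in Hoil mice, limma called only *Il7r*, the receptor chain for the survival cytokine IL-7. It was lower in the low (−0.27, adjusted p = 0.00807) and high fraction of Hoil mice (−0.18, adjusted p = 0.0235), where 0.563% and 2.81% of all genes were lower. edgeR and DESeq2 each called 1 of the 9 in the low and 2 in the high fraction. An unadjusted limma p under 0.05 was found for 4 of the 9 in the low and 6 in the high fraction. The sum of the 9 was 4164 to 4385 CPM in Hoil and 4692 to 4861 CPM in WT high-fraction cells. In Sharpin mice limma called 3 of the 9 higher in the low and 1 in the high fraction, against 5.31% and 4.15% of all genes. None of the 9 was called lower there. Their sum was 1392 to 1447 CPM in Sharpin and 1238 to 1254 CPM in WT low-fraction cells. In Sharpin high-fraction cells it was 4820 to 5089 CPM. The part of stage in the lower *Gramd3*, *Inf2* and *Tspan9* and the higher *Fkbp5* of Hoil high-fraction cells was not tested. Within WT, *Fkbp5* differed little between fractions (0.01), whereas the DP sum was higher in the low fraction (532 to 538 CPM).

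The gene most like *Fkbp5* over the 18 samples was *Dntt*, which encodes the polymerase that adds untemplated bases at T-cell receptor joints (Pearson r = 0.946 of log2 CPM over 18 samples). *Dntt*, like *Fkbp5*, was at similar levels in the WT fractions (87.9 to 94.3 CPM in the low, 85.8 to 93.0 in the high) and was at 116, 191 and 193 CPM in high-fraction cells of Hoil mice 1, 2 and 3, the order also seen for *Fkbp5*.

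**Figure D4:**
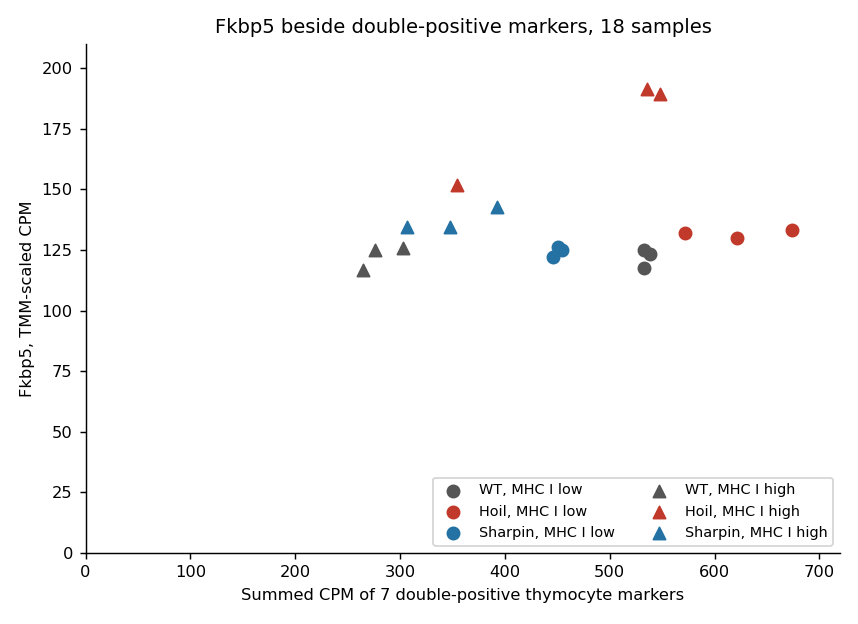
*Fkbp5* level (vertical axis, TMM-scaled CPM) against the summed CPM of 7 DP thymocyte markers (horizontal axis) in 18 samples, coloured by genotype, circles for MHC I low and triangles for high-fraction cells. Among MHC I high samples, those of Hoil mice 2 and 3 are highest on both axes, whereas MHC I low samples keep *Fkbp5* between 118 and 133 CPM at marker sums from 446 to 674 CPM.

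The genes most like the others were taken by the same measure, in samples that share groups and libraries. The samples include those of Hoil mice, and the chosen genes, *Fkbp5* among them, were picked by their Hoil difference. A high r with another gene shifted in Hoil cells is therefore in part fixed by that choice. No r given here is a test of shared regulation. For *Marchf6* they were *Rbck1* itself (r = 0.92), *Trib3*, a pseudokinase gene next to *Rbck1* on chromosome 2 (152337425 to 152344060; r = 0.893), and *Pskh1* (r = 0.850). The log2 change from WT in Hoil cells was −8.63 (low) and −5.55 (high) for *Rbck1*, the gene deleted in these mice. It was −2.16 and −2.37 for *Trib3*. For *Cpt1a* they were *Ptprv* (r = 0.859), *Bag2* (0.853) and *Pcmt1* (0.845). The 2 chosen genes ran against each other (*Marchf6* with *Cpt1a*, r = −0.90), having been picked with opposite Hoil differences. *Sh3bgrl2* was most like *Man1c1* (r = 0.927), *Cd55* (0.921) and *Ubash3b* (0.894), and *Man1c1* most like *Adgre5* (0.970), *Hip1r* (0.967) and *Adamtsl2* (0.956). Of these, *Cd55*, a regulator of complement, had values like those of *Sh3bgrl2* in Hoil low-fraction cells (1.83 against 2.11). *Inf2* paired with *B4galnt1* (0.983), *Tspan9* (0.981) and *Oas1b* (0.981), *Tspan9* with *S1pr4* (0.985), *Rps15a* (0.984) and *Pla2g4f* (0.983), and *Gramd3* with *Adam19* (0.980), *Apobec3* (0.979) and *Arl5c* (0.974). In WT all of these last partners were at higher levels in the high than in the low fraction, from a log2 difference of 0.57 for *Apobec3* to 4.05 for *Adam19*.

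The nearest tested genes on either side of the 8, 16 in all, were examined for shared shifts. In Hoil low-fraction cells the smallest adjusted p among them was 0.203 (limma), and in high-fraction cells *Adssl1*, an adenylosuccinate synthase gene 4489 bases from *Inf2*, rose by 1.06 ± 0.28 (adjusted p = 0.0192) while *Inf2* was lower. *Ttk*, a mitotic kinase gene 234358 bases from *Sh3bgrl2*, was higher in high-fraction cells of both Hoil (0.71 ± 0.22, adjusted p = 0.0474) and Sharpin mice (0.74 ± 0.20, adjusted p = 0.0183). Of all genes, 0.985% were called in the low (0.422% higher, 0.563% lower) and 6.65% in the high fraction of Hoil mice (3.84% higher, 2.81% lower). *Ropn1l*, which lies 2209 bases from *Marchf6*, had a change of −1.71 ± 0.76 (adjusted p = 0.397) in the low and −1.54 ± 0.68 (adjusted p = 0.179) in the high fraction at a WT level of 0.502 and 0.579 CPM.

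Lists of genes that work with the 8 were compared between Hoil and WT by limma. Among 30 tested genes of ER-associated degradation and ER ubiquitin ligases, the setting of MARCHF6, the median change was 0.07 in MHC I low and 0.01 in high-fraction cells. In the high fraction, where limma called 6.65% of all genes, it called 4 of the list, of which edgeR called 0 and DESeq2 1. Among them *Sqle*, an enzyme of sterol synthesis whose breakdown runs through this system, rose (0.64 ± 0.15, adjusted p = 0.00632), and *Rnf145* (−0.18 ± 0.05, 0.03) and *Erlec1* (−0.25 ± 0.08, 0.0478) fell. In the low fraction 0 were called by any of the 3 tools, and 5 had an unadjusted limma p under 0.05. *Sqle* also rose in Sharpin high-fraction cells (0.61 ± 0.13, adjusted p = 0.00307), in which the *Marchf6* value was −0.03. None of the 6 tested relatives of *Marchf6* was called in Hoil cells by limma, edgeR or DESeq2 in either fraction, and 0 of them had an unadjusted p under 0.05.

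Around *Cpt1a*, 34 genes of fatty acid oxidation and the carnitine shuttle were tested. In Hoil low-fraction cells 0 were called by limma, edgeR or DESeq2 and 6 had an unadjusted limma p under 0.05. In Hoil high-fraction cells limma called 3 of the list, against 6.65% of all genes, and edgeR and DESeq2 each called 0. Among the 3, *Plin2*, of the lipid droplet coat, rose (0.58 ± 0.15, adjusted p = 0.0229) and *Ppargc1a*, a coactivator of mitochondrial genes, fell (−1.81 ± 0.49, 0.0212). *Ppargc1a* was scarce, at 0.786 CPM in WT high-fraction cells, and was also called in Sharpin high-fraction cells (−2.88, adjusted p = 5.04e-05). Of the partners of CPT1A in the shuttle, *Cpt2* and *Slc25a20* were not called by limma (adjusted p from 0.429 to 0.913). In the low and high fraction *Cpt2* was at −0.08 ± 0.15 and −0.12 ± 0.13, and *Slc25a20* at 0.22 ± 0.10 and 0.02 ± 0.09. In Sharpin low-fraction cells limma called 5 of the 34 higher, against 5.31% of all genes. First among the 5 were *Acaa2* (0.34, adjusted p = 0.00224), *Ucp2* (0.44, 0.00471) and *Acadvl* (0.24, 0.00503).

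*Fkbp5* acts within the HSP90 complex that holds the glucocorticoid receptor. Over 14 genes of this complex, the median change in Hoil high-fraction cells was 0.37, against −0.00027 over all genes. Of the 14, limma called 6 higher there, where 3.84% of all genes were. Among them were *Hsp90aa1* (94.2 ± 11.5 CPM in WT, 148 ± 38.4 in Hoil; 0.70 ± 0.15, adjusted p = 0.0161), *Hsp90ab1* (0.34 ± 0.08, 0.0201), *Dnajb1* (0.30 ± 0.07, 0.00977) and the receptor gene *Nr3c1* (218 ± 6.6 CPM in WT, 249 ± 9.56 in Hoil; 0.21 ± 0.06, 0.0245). The count was 0 by edgeR, 1 by DESeq2, 0 without sample quality weights, and 0 without WT mouse 1, WT mouse 3, Hoil mouse 2 or Hoil mouse 3, and 10 without Hoil mouse 1, while 10 of the 14 had an unadjusted limma p under 0.05. In Hoil low-fraction cells only *Dnajb1* was called (0.31 ± 0.08, adjusted p = 0.0476), with a median of 0.30, and in Sharpin cells *Dnajb1* fell (−0.42, adjusted p = 0.000257 in the low; −0.48, adjusted p = 1.04e-05 in the high fraction).

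**Figure D5:**
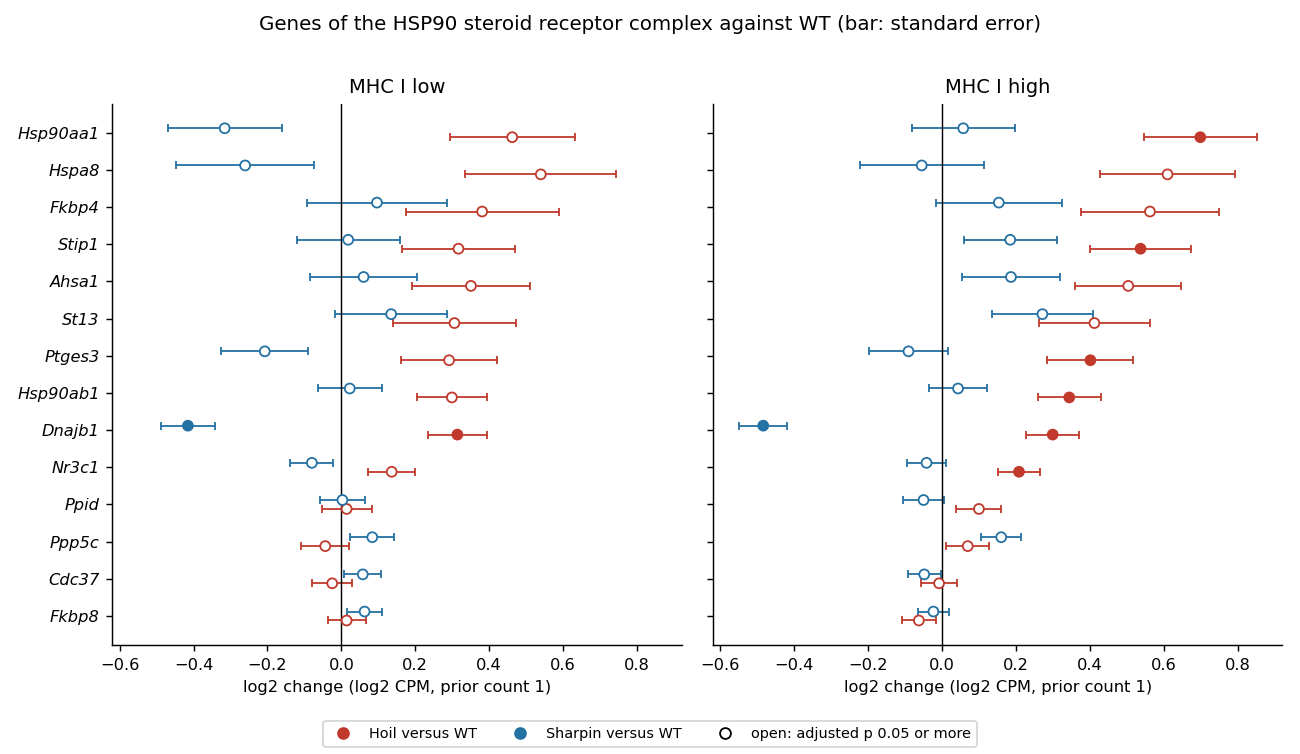
Log2 change from WT (horizontal axes, with SE bars) of 14 genes of the HSP90 steroid receptor complex in Hoil (red) and Sharpin (blue) MHC I low and high-fraction cells; filled points have an adjusted limma p under 0.05. In Hoil high-fraction cells 6 genes, from *Hsp90aa1* at 0.70 to *Nr3c1* at 0.21, are filled, and in Sharpin only *Dnajb1* is, below 0.

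Of 20 other genes known to be induced by glucocorticoids, 0 were called higher in Hoil cells, and 2 (low) and 3 (high) were called lower, beside 0.563% and 2.81% of all genes. *Bcl2l11*, which encodes the death-promoting protein BIM, fell in Hoil low-fraction cells (−0.37 ± 0.07, adjusted p = 0.00234) and in Sharpin low-fraction cells (−0.41 ± 0.06, 4.1e-05). *Il7r* fell in Hoil and rose in Sharpin cells (0.27, adjusted p = 0.000518 in the low; 0.26, adjusted p = 0.000356 in the high fraction). *Sgk1* (−0.46 ± 0.12, 0.0165) and *Rgcc* (−0.29 ± 0.08, 0.0254) fell in Hoil high-fraction cells. *Tsc22d3*, which encodes the glucocorticoid-induced protein GILZ, was at 0.66 ± 0.27 (adjusted p = 0.378) and 0.52 ± 0.24 (0.226), with a wide spread in Hoil (42.6 ± 22.8 CPM low, 137 ± 49.4 high).

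Among 15 other tetraspanins tested, *Cd82* was lower in Hoil cells of both fractions (−0.73 ± 0.09, adjusted p = 1.96e-05; −0.61 ± 0.08, 2.36e-05) and in Sharpin cells of both (−0.46 ± 0.08, 0.000387; −0.40 ± 0.07, 0.000677). *Cd37* (−0.23 ± 0.06, 0.0115) and *Tspan32* (−0.28 ± 0.08, 0.035) were lower in Hoil high-fraction cells. In Sharpin cells *Tspan32* fell much further, from 87.9 ± 3.60 to 10.2 ± 1.78 CPM in the low (−3.10 ± 0.08, adjusted p = 9.99e-22) and from 142 ± 3.13 to 44.99 ± 1.02 CPM in the high fraction (−1.66 ± 0.08, 6.51e-16), and *Cd81* rose (0.61 ± 0.09, 9.08e-05; 0.60 ± 0.08, 3.3e-05). The part of the strain background of Sharpin mice in their *Tspan32* and *Cd81* changes was not tested. The median over the 15 was 0.01 in Hoil MHC I low and −0.08 in Hoil high-fraction cells.

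The remaining relatives showed few calls in Hoil cells. Of 19 genes of N-glycan trimming and branching, the setting of *Man1c1*, *B4galt1* fell in Hoil high-fraction cells (−0.23 ± 0.06, adjusted p = 0.0266, limma) and likewise in Sharpin high-fraction cells (−0.19 ± 0.06, 0.0321), where *Mgat5*, a branching enzyme that tunes T-cell receptor clustering, also fell (−0.32 ± 0.09, 0.0277; low fraction −0.39 ± 0.10, 0.0105). Of 10 formins related to *Inf2*, *Diaph3* rose in Hoil high-fraction cells (0.72 ± 0.18, adjusted p = 0.0116), and of 10 genes of mitochondrial fission *Mief2* fell there (−0.27 ± 0.08, 0.0385) and rose in Sharpin low-fraction cells (0.35 ± 0.08, 0.00349). The 4 tested relatives of *Gramd3* and the 2 of *Sh3bgrl2* had list medians between −0.13 and 0.07 in Hoil cells, with 0 called by limma, edgeR or DESeq2 and at most 1 with an unadjusted limma p under 0.05. Among the former, *Gramd1b* fell in Sharpin low-fraction cells (−0.37 ± 0.07, adjusted p = 0.000716), and among the latter *Sh3bgrl3* rose there (0.27 ± 0.07, 0.019).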

How the data were processed

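The submitters' notes and the study's methods give single-end reads of TruSeq libraries, alignment to mm10 with subread and gene counting with featureCounts on its built-in RefSeq annotation. Versions, strand and multiple-match settings are not given in the sources used here. The deposited values are whole-number counts, not normalized. Of 27179 Entrez IDs, 25275 matched GRCm38.p6, and the other 1904 held 0.655% of the counts. Kept were 12798 genes that reached 0.5 CPM in 3 or more samples and were not Y-linked, predicted, unmatched or *Xist*. TMM-scaled log2 CPM (prior count 1) were computed here from the deposited counts and fitted in limma 3.58.1 (edgeR 4.0.16, R 4.3.3) with 6 group means, sample quality weights, mouse as random block, and trended robust moderation. An adjusted p under 0.05 was a call. Both fractions of a mouse come from 1 animal, and their deviations correlated at r = 0.0702 to 0.256. Litters are not given, so that p-values measure the spread between these mice. The scripts were tested on simulated data.

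The 8 genes, gene lists and markers were chosen with earlier results of these data known. Named besides the 8 are genotype, sort and sex checks, nearest tested neighbours, the 3 most correlated genes of each, marker genes, and from each list the called genes where at most 4, otherwise the 3 with the smallest p per direction. Some called genes of these lists are not reported here. *Nr3c1*, *Tsc22d3*, *Cpt2* and *Slc25a20* were added after their values were seen. The fits were repeated with the quasi-likelihood test of edgeR, DESeq2 1.42.0, scaling by library size alone, other filters, no weights, no block or a fixed one for mouse number, prior count 3, an *Xist* covariate and each mouse left out. Promoters come from RefSeq (GRCm38.p6).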

Additional observations from a re-analysis of the deposited data

Results flagged for a closer look

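For 3 of the 8 genes the change from the low to the high fraction differed between Sharpin and WT mice by a test of the difference itself (limma interaction term, adjusted over all genes). The WT samples in this test also entered the choice of the genes. The value, Sharpin minus WT on the log2 scale, was 0.87 for *Gramd3* (adjusted p = 5.06e-05), whose level was lower in Sharpin than in WT cells by more in the low than in the high fraction. It was −1.72 for *Sh3bgrl2* (adjusted p = 0.00121; 0.072 with edgeR), which rests on 6 to 9 counts per sample in the low fraction of WT mice and 10 to 25 in that of Sharpin mice. For *Tspan9* it was −0.49 (adjusted p = 0.00515), with a lower level in Sharpin mice in the high fraction. Over 19 alternative fits the adjusted p ran from 2.06e-05 to 0.0105 for *Gramd3* and from 0.00238 to 0.0496 for *Tspan9*.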

How the results depend on the processing

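Single-gene values kept their direction and side of the threshold in 1018 of 1073 refits; 33 lost and 5 gained a call, 3 moved, and 14 changed sign, where the cause was not tested. Left-out mice gave sign changes as follows. *Marchf6* in Sharpin against WT ran from −0.039 (without Sharpin mouse 1) to 0.059 in the low fraction, where it was −0.0021 with at least 10 counts in every sample, and from −0.081 to 0.013 in the high fraction. Between WT fractions *Marchf6* ran from −0.15 to 0.0082 and *Fkbp5* was −0.0036 without WT mouse 3. In the Sharpin minus WT change *Marchf6* ran from −0.14 to 0.022 and *Cpt1a* from −0.10 to 0.063. *Sh3bgrl2* in the high fraction of Hoil mice ran from −0.043 (without Hoil mouse 1) to 0.37 (without Hoil mouse 2) and was −0.024 in female mice. No value with a changed sign was called. *Sh3bgrl2* gave no value with at least 10 counts in every sample.

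Of the 8 genes, 4 were called in the high fraction of Sharpin mice and 2 without quality weights. With 1 mouse left out, 2 to 4 were called in the low and 2 to 5 in the high fraction of Sharpin mice, 5 to 6 between WT fractions, 5 to 7 between Sharpin fractions and 3 in the Sharpin minus WT change. Over all genes, calls in Sharpin mice in the high fraction went from 1103 to 521 with edgeR, 601 with DESeq2, 694 with no filter and 431 without weights, and those in the Sharpin minus WT change from 400 to 30, 134, 146 and 253. Calls in Hoil mice went from 126 to 191 with DESeq2 and 209 with the *Xist* covariate in the low fraction, and from 851 to 404, 484, 453 and 314 with edgeR, DESeq2, no filter and no weights in the high fraction. With 1 mouse left out the ranges were 818 to 1555 and 238 to 1142 in Sharpin (low and high), 4953 to 6957 between WT and 5453 to 7079 between Sharpin fractions, 104 to 496 in the Sharpin minus WT change, and 62 to 222 and 134 to 1219 in Hoil (low and high). Leaving out WT mouse 3 gave the lowest count in the high fraction of both mutants. Genes of the related lists called in Hoil went from 22 to 5, 9, 8 and 4 in the high fraction under edgeR, DESeq2, no filter and no weights, with 1 to 24 over left-out mice, and from 4 to between 2 and 9 in the low fraction. The 6 genes of the HSP90 complex became 0, 1, 2 and 0 under the same settings and 0 to 10 over left-out mice, and the 6 double-positive markers 2 to 7.

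The pairing of the fractions by mouse was kept as a random block. Without the replicate block 124 genes, and with mouse number as a fixed block 190 genes, were called in the Sharpin minus WT change in place of 400. The fixed block ended the calls of *Gramd3* (high fraction, Sharpin, adjusted p = 0.0608) and of *Fkbp5* and *Marchf6* (between Sharpin fractions, 0.0525 and 0.0629).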

Other observations

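Of 6 genes that mark regulatory T cells, limma called 3 lower in each fraction of Hoil mice, where 0.563% (low) and 2.81% (high) of all genes were lower. In Sharpin mice 2 of the 6 were called lower in the low fraction (median −0.42) and 4 in the high fraction (median −0.42), where 6.92% and 4.47% of all genes were. The Hoil and Sharpin comparisons share the WT samples. The genes called in Hoil mice were *Il2ra*, the high-affinity chain of the IL-2 receptor (−1.34, adjusted p = 8.76e-05 in the low; −1.10, 0.000142 in the high fraction), *Tnfrsf4*, which encodes OX40 (−0.73, 0.000586; −0.67, 0.000209), and *Tnfrsf18*, which encodes GITR (−0.39, 0.00228; −0.40, 0.000195). By limma, *Foxp3*, the defining factor of that lineage, was not called (0.31, adjusted p = 0.771 in the low and −0.54, 0.244 in the high fraction). Nor were *Ikzf2* (0.18, 0.556 and −0.20, 0.218) and *Ctla4* (−0.06, 0.951 and −0.24, 0.430). In low-fraction cells the 6 genes summed to 1024 to 1151 CPM in Hoil and 909 to 1118 CPM in WT. In high-fraction cells the sums were 531 to 674 and 666 to 766 CPM. The sort had removed cells that carried CD25, the product of *Il2ra*. edgeR and DESeq2 also called 3 of the 6 in each fraction of Hoil mice.

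Of 7 markers of natural killer and innate-like T cells, 3 were higher and 1 was lower in the high fraction of Hoil mice (3.84% and 2.81% of all genes), *Sox13* (1.53, adjusted p = 5.98e-05), *Gzma* (1.56, 0.000886) and *Trdc* (0.38, 0.0394) against *Klrd1* (−1.86, 0.0084). Their sum over 9 genes was 86.5 to 104 CPM in Hoil and 75.9 to 84.6 CPM in WT samples of that fraction. Of 3 tested genes on the thymic epithelial list, limma called *Ly75* lower in the low fraction of Hoil mice (−0.53, adjusted p = 0.0295). There edgeR called 0 of the 3 and DESeq2 1. Limma also called 1 of the 3 lower in the low fraction of Sharpin mice. *Ly75* reached 65.4 CPM, whereas *Foxn1*, *Krt5*, *Krt8*, *Krt14* and *Psmb11* of this list were at no more than 0.433 CPM. The change of *Ly75* can therefore not be read as a change in epithelial cells. Markers of B cells, myeloid cells and erythroid cells had 0 calls by limma, edgeR or DESeq2 in Hoil mice, and 1 B cell gene an unadjusted p under 0.05 in the high fraction.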
